A study of Schmidtea mediterranea with 40 samples.

Results

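The mitochondrial respiratory chain and ATP synthase of the planarian *Schmidtea mediterranea* were followed at wounds of *activin-2* RNAi and control RNAi animals through 59 contigs of the transcriptome, out of 28742 contigs in the count table. A contig was taken when the description of its human match held a phrase that names 1 of the 5 complexes (NADH dehydrogenase (ubiquinone), succinate dehydrogenase complex, ubiquinol-cytochrome c reductase, cytochrome c oxidase subunit or mitochondrial H+ transporting ATP synthase) and its counts summed to at least 400 over the 40 libraries, which 16101 contigs of any kind reached. The 59 contigs correspond to 53 human gene symbols and fall into 25 contigs of complex I, 4 of complex II, 6 of complex III, 4 of complex IV, 12 of complex V and 8 assembly factors. Without the minimum sum 63 contigs matched, and the 4 that fell out matched UQCRH with 80 counts, NDUFAF5 with 38, COX6B2 with 27 and ATP5B with 0. The contig just inside the limit was dd_Smed_v6_13028_0_1, a second match to SDHA, with 736 counts, and the next was NDUFA2 with 2870. All names and roles below are those of the human match.

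Complexes I and II feed electrons from NADH and succinate into ubiquinone, complex III passes them to cytochrome c, and complex IV hands them to oxygen. Complexes I, III and IV pump protons as they do so, and complex V, the ATP synthase, uses the returning protons to make ATP. Most subunits are encoded in the nucleus and imported, while a core set is encoded in mitochondrial DNA, and dedicated assembly factors insert cofactors and join the subunits. No subunit encoded in mitochondrial DNA was analysed here, since the list of such names matched only TACO1, a nuclear-encoded activator of mitochondrial translation.

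The animals were of the asexual strain CIW4 and had been fed double-stranded RNA against the Activin ligand gene *activin-2* or against *unc-22*, a *Caenorhabditis elegans* gene used as the control. There were 4 feedings over 14 days, and animals were cut 7 days after the last one. By the sample records, each library came from tissue of 5 wounds of post-pharyngeal fragments, collected at hours post amputation (hpa) given here as labelled. The paper's figure legends instead give 3 wound sites per replicate at 0 hpa and 3 to 4 across the times. Each RNAi condition had 3 libraries at each of 0, 6, 24 and 48 hpa, at posterior-facing wounds except that the labels of the 0 hpa libraries give no orientation, and 4 libraries at anterior-facing and 4 at posterior-facing wounds at 18 hpa. Nothing in the labels says that libraries came from separate cultures of animals, so the p-values measure the spread between these libraries, which may in part be technical.

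Libraries held 2524235 to 13381025 counted reads, with a median of 10533396, and the 59 contigs took 0.643% of all reads. *activin-2* itself was between 2.25 and 5.55 RPM (reads per 1000000 counted reads) at the times labelled 0, 6, 24 and 48 hpa in *activin-2* RNAi, against 30.3 to 54.0 RPM in their controls. At 18 hpa the level of the target contig went against some labels. It was 29.5, 85.8, 25.8 and 47.8 RPM in the anterior-facing libraries labelled *activin-2* RNAi, against 28.7, 28.9, 31.9 and 27.1 RPM in control RNAi, and 70.1, 16.6, 6.02 and 3.63 RPM in the posterior-facing libraries labelled *activin-2* RNAi, against 33.4, 37.7, 36.9 and 44.3 RPM in control RNAi. Directions at 18 hpa are therefore those of the labels. The paper placed its qPCR primers partly outside the fed sequence so that double-stranded RNA was not amplified. Whether the counts of this contig include fed RNA was not tested.

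The transcripts of the respiratory chain were present in every library and stood in a narrow range. No contig had a 0 in any library, and the smallest count was 4, for the second SDHA contig. The ratio of the highest to the lowest of the 12 group means was between 1.10 for SDHB, the iron-sulphur subunit of complex II, and 2.39 for the second SDHA contig, with a median of 1.37. The coefficient of variation between libraries of a group had a median of 7.17% over the 59 contigs and ran from 3.93% for ATP5C1, the gamma subunit of ATP synthase, to 22.8% for the second SDHA contig. Contig lengths are not in the files used here, so levels are compared between libraries and not between contigs.

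In complex I, NDUFA9 (contig dd_Smed_v6_1524_0_1), an accessory subunit near the quinone site, had group means of 179 to 234 RPM, and NDUFS1, which carries iron-sulphur clusters of the matrix arm, had group means of 141 to 198 RPM. SDHA (contig dd_Smed_v6_897_0_1), the flavoprotein that oxidizes succinate, had group means of 446 to 511 RPM, and SDHC, a membrane anchor of complex II, of 176 to 199 RPM. The core proteins of complex III, UQCRC1 and UQCRC2, had group means of 270.3 to 312 RPM and of 182 to 235 RPM. For complex IV, COX4I2 and COX5A, both nuclear-encoded subunits, spanned 86.7 to 129.8 RPM and 74.1 to 119 RPM. The alpha and beta subunits of the catalytic head of ATP synthase, ATP5A1 and ATP5B, had group means of 751 to 909 RPM and 794 to 945 RPM. These ranges are over the 12 groups and come from the RPM, which are not corrected for composition. By RPM, the control libraries labelled 24 hpa gave the lowest group mean for 28 of the 59 contigs and those labelled 48 hpa for 16, while the highest group mean fell to the posterior-facing libraries labelled *activin-2* RNAi at 18 hpa for 18 contigs and to *activin-2* RNAi at 6 hpa for 14. The 18 hpa libraries have another label format and replicate number, and the labels do not say whether they were prepared with the rest. In ranges and rankings over the 12 groups, a batch and the labelled time therefore cannot be told apart for 18 hpa, which the tests of labelled time left out.

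**Figure D1:**
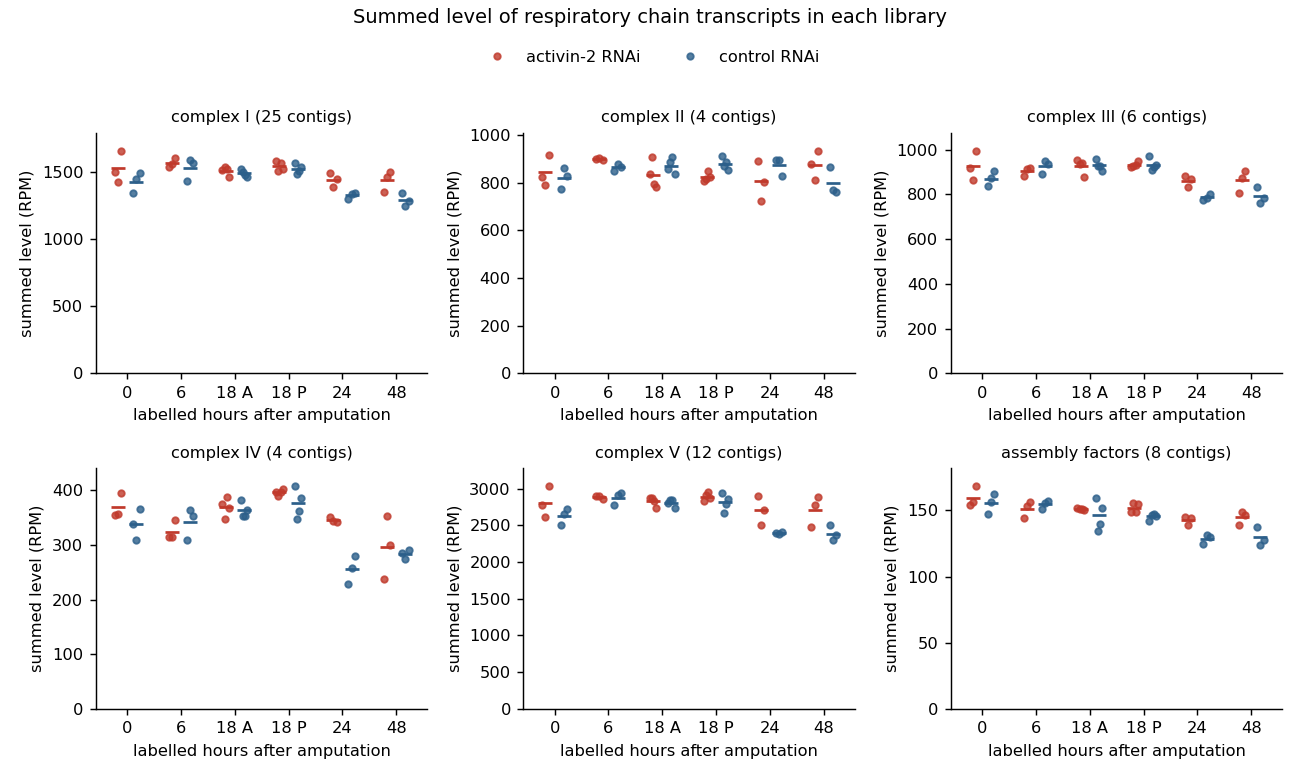
Summed RPM of the members of each complex and of the assembly factors in every library, by labelled time and wound orientation, with *activin-2* RNAi left of control RNAi and a bar at each group mean. For complex IV at 24 hpa the *activin-2* RNAi libraries sit between 342 and 351 RPM, above the control libraries, between 229 and 279 RPM, and the sums of complexes I, III and V and of the assembly factors at 24 hpa do not overlap either, while those of complex II do. RPM is not corrected for composition, and 31.6% of all contigs also lay entirely above the controls at 24 hpa.

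Whether *activin-2* RNAi altered these transcripts was tested at each time and orientation with edgeR's quasi-likelihood test and Benjamini-Hochberg adjustment over all contigs, with a change called at an adjusted p under 0.05. Among 354 tests (59 contigs in 6 comparisons), 7 were called, each for a different contig, and no contig was called in 2 or more comparisons. Of 59 contigs, 0 were called at 0 hpa (4.22% of all contigs tested were called there), 0 at 6 hpa (2.00%), 0 at anterior-facing wounds at 18 hpa (2.60%), and 0 at 48 hpa (2.33%). At posterior-facing wounds at 18 hpa 0 contigs were called higher and 2 lower, beside 3.15% and 5.78% of all contigs, and at 24 hpa 4 were called higher and 1 lower, beside 4.51% and 7.96% of all contigs. In a bulk sample fewer cells of a kind and less RNA per cell cannot be told apart, and this holds for every difference below.

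**Figure D2:**
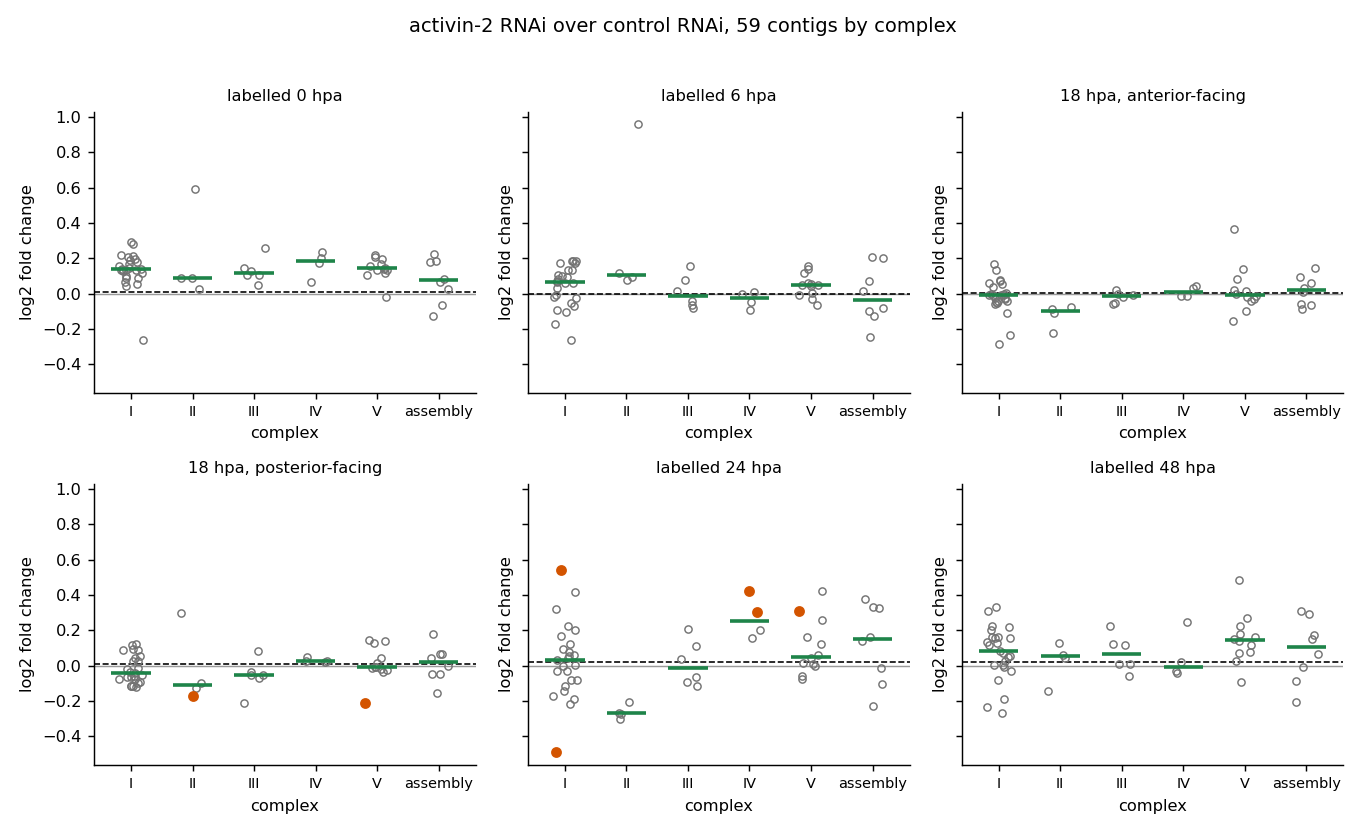
Log2 fold changes of the 59 contigs, positive where *activin-2* RNAi is above control RNAi, at each labelled time and orientation (A, anterior-facing; P, posterior-facing), by complex, with called contigs filled, the median of the complex as a green line and the median of all contigs as a dashed line. The 7 called contigs lie at 18 hpa posterior-facing, where both are below 0, and at 24 hpa, where 4 are above 0 and 1 is below; values are after TMM scaling, and with scaling by library size the contig below 0 at 24 hpa was not called.

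At 24 hpa the calls in *activin-2* RNAi fell on complexes I, IV and V. Of the 4 complex IV contigs, 2 were higher, COX6B1 and COX4I2, and the other calls upward were NDUFB5 of complex I and ATP5G2 of complex V. The 1 contig called lower matches NDUFS7 of complex I.

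COX6B1, a complex IV subunit facing the intermembrane space, had 106, 97.2 and 91.4 RPM in *activin-2* RNAi at 24 hpa, against 56.7, 67.0 and 75.6 RPM in control RNAi. All 3 *activin-2* RNAi libraries lay above all 3 controls (log2 fold change 0.42, SE 0.10, adjusted p = 0.0133). COX4I2, an isoform of the subunit that takes part in regulating the oxidase in mammals, had 116, 114 and 124 RPM in *activin-2* RNAi, against 78.0, 88.4 and 93.7 RPM in control RNAi. Again the groups did not overlap (log2 fold change 0.31, SE 0.07, adjusted p = 0.0203). The other complex IV contigs, COX5A and COX7C, also had every *activin-2* RNAi library above every control without passing the test, and the log2 fold changes of the 4 contigs ran from 0.16 to 0.42. Summed over the 4 contigs, complex IV held 351, 343 and 342 RPM in *activin-2* RNAi and 229, 258 and 279 RPM in control RNAi. By RPM, which is not corrected for composition, the sums of complex I (1386 to 1491 RPM in *activin-2* RNAi, against 1298 to 1344 RPM in control RNAi), complex III (831 to 883 against 774 to 802 RPM), complex V (2504 to 2900.5 against 2389.8 to 2409 RPM) and the assembly factors (139 to 145 against 124 to 131 RPM) were also higher without overlap, while those of complex II overlapped. At posterior-facing wounds labelled 18 hpa the same sum was 397, 389.7, 398 and 403 RPM in libraries labelled *activin-2* RNAi, against 407, 347, 363 and 387 RPM in control RNAi, and the ranges overlapped.

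NDUFB5, an accessory subunit of the membrane arm of complex I, had 26.2, 31.3 and 31.3 RPM in *activin-2* RNAi at 24 hpa, against 13.7, 18.2 and 23.2 RPM in control RNAi. Every *activin-2* RNAi library was above every control, and the control libraries were themselves spread (log2 fold change 0.54, SE 0.14, adjusted p = 0.03). The contig dd_Smed_v6_23_0_1 matches ATP5G2, which forms the rotating ring of ATP synthase, and is the only 1 of the 59 contigs that the deposited table annotates to a cell type, a muscle class. It had 79.5, 66.6 and 70.8 RPM in *activin-2* RNAi, against 50.4, 53.2 and 55.4 RPM in control RNAi, with no overlap (log2 fold change 0.31, SE 0.08, adjusted p = 0.031). The other ATP5G2 contig was not called, and how reads were split between contigs with the same human match is uncertain.

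NDUFS7, a core subunit that carries the last iron-sulphur cluster before ubiquinone, is matched by a pair of contigs. One of them, dd_Smed_v6_4432_0_1, had 12.8, 11.5 and 10.8 RPM in *activin-2* RNAi at 24 hpa, against 12.8, 16.7 and 15.0 RPM in control RNAi. All *activin-2* RNAi libraries lay below the controls, the highest of them just under the lowest control (log2 fold change -0.49, SE 0.13, adjusted p = 0.03). The other contig, dd_Smed_v6_2735_0_1, had a log2 fold change of 0.04 (SE 0.10, adjusted p = 0.848), and the difference between the contigs was not tested.

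All 4 complex II contigs had negative log2 fold changes at 24 hpa, from -0.30 to -0.20 with a median of -0.27, and none was called. The sum over complex II was 892, 725 and 805 RPM in *activin-2* RNAi and 897, 893 and 829.7 RPM in control RNAi, which overlap. Medians of the other groups were 0.04 for complex I, -0.01 for complex III, 0.05 for complex V and 0.15 for the assembly factors, beside 0.02 for all contigs. Over the 59 contigs the median was 0.04, with 35 positive.

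These calls depend on the scaling and on single libraries. TMM factors, which correct for composition, were 0.996 to 1.01 in *activin-2* RNAi and 0.882 to 0.948 in control RNAi at 24 hpa, and without them the median of all contigs was 0.16 in place of 0.02. With library size alone, 14 contigs were called higher and 0 lower, in place of 4 and 1, and complex II kept a negative median of -0.13. On the RPM scale 31 of 59 contigs had every *activin-2* RNAi library above every control and 1 had every one below, beside 31.6% and 9.01% of all contigs. The number called was 0 without control replicate 2, 1 without control replicate 1 or without *activin-2* RNAi replicate 3, and 10 without control replicate 3. Over all alternatives the adjusted p reached 0.0536 for COX6B1, 0.102 for COX4I2, 0.112 for NDUFB5, 0.107 for ATP5G2 and 0.135 for NDUFS7.

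Other transcripts were read in the same libraries at 24 hpa, where 4.51% of all contigs were called higher and 7.96% lower. *smedwi-1*, a marker of neoblasts, the planarian stem cells, was 734, 704 and 727 RPM in *activin-2* RNAi and 555, 574 and 602 RPM in control RNAi, while the summed neoblast contigs stood at 6215 to 6517 RPM in *activin-2* RNAi and 6084 to 6245 RPM in control RNAi, with 16 higher and 17 lower of 358 tested. Of 820 muscle contigs, 39 were called higher and 111 lower (summed level 72005 to 98772 RPM in *activin-2* RNAi, 78486 to 83244 RPM in control RNAi), and of 262 neural contigs, 8 were higher and 52 lower (8731 to 9893 RPM in *activin-2* RNAi, 7879 to 8394 RPM in control RNAi). Of 813 gut contigs, 51 were higher and 84 lower (108113 to 123354 RPM in *activin-2* RNAi, 115711 to 119040.0 RPM in control RNAi). The pharynx marker dd_Smed_v6_554_0_1 was 48.6, 39.3 and 6.98 RPM in *activin-2* RNAi and 4.66, 16.4 and 14.9 RPM in control RNAi. Their part in the differences of the respiratory chain contigs was not tested.

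**Figure D3:**
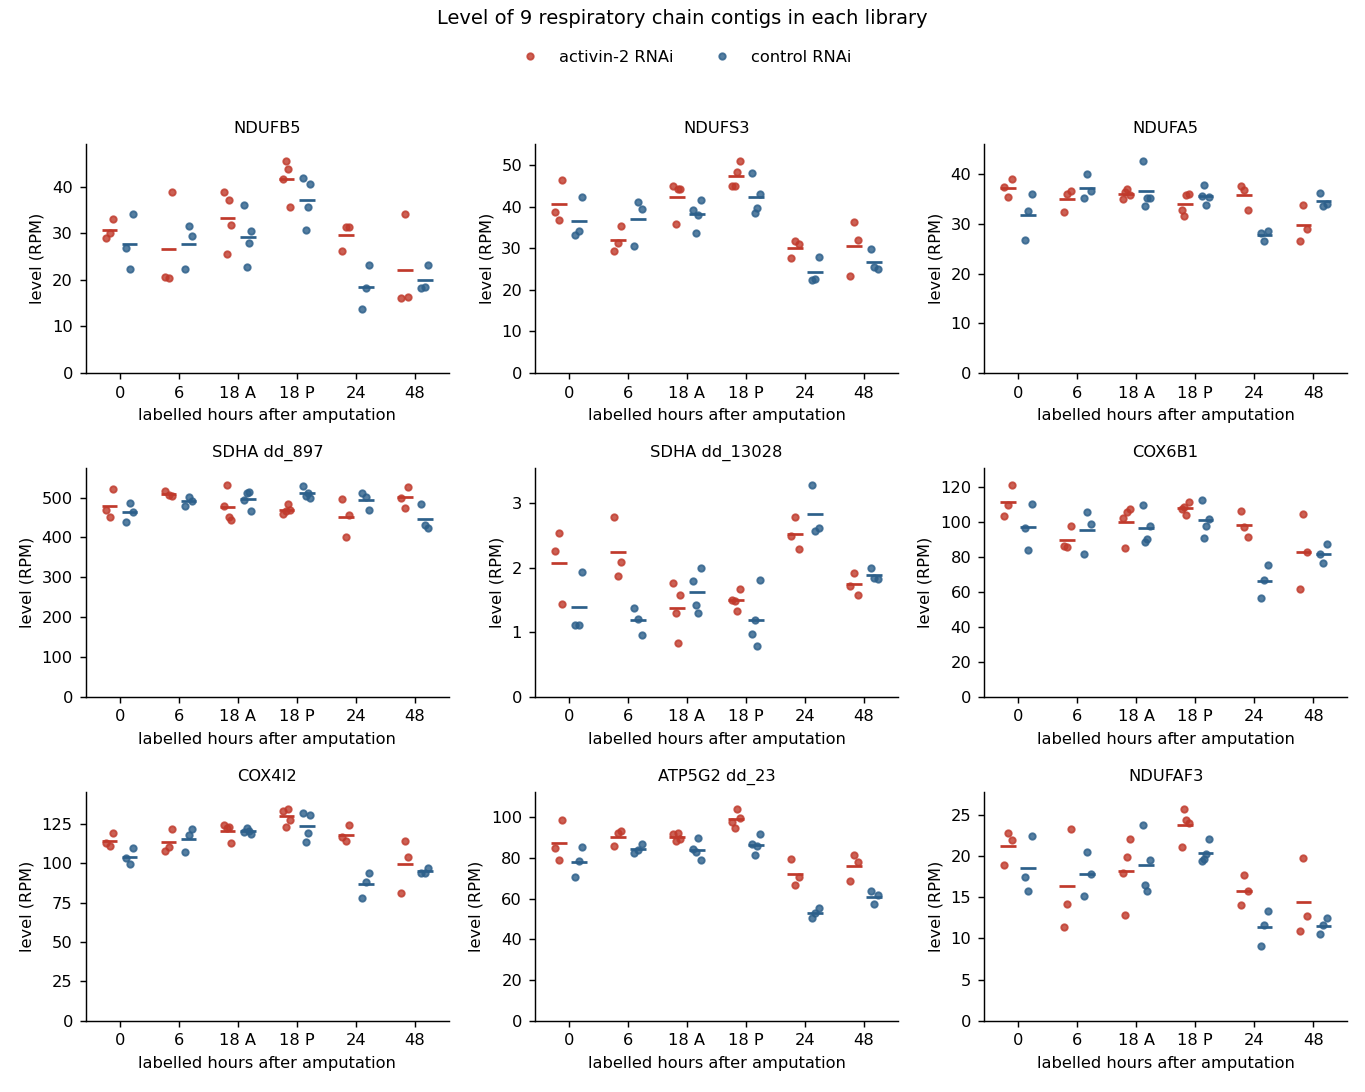
RPM of 9 contigs in every library by labelled time and orientation, *activin-2* RNAi left of control RNAi, with a bar at each group mean. At 24 hpa COX6B1, COX4I2, NDUFB5 and ATP5G2 (dd_23) are higher in all *activin-2* RNAi libraries than in all controls, while SDHA (dd_897) lies at 459 to 483 RPM in libraries labelled *activin-2* RNAi and at 499 to 529 RPM in control RNAi at posterior-facing wounds at 18 hpa.

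At posterior-facing wounds labelled 18 hpa, 2 contigs were called and both were lower in libraries labelled *activin-2* RNAi. ATP5O, the stalk subunit that ties the catalytic head of ATP synthase to its membrane part, had 97.0, 97.2, 97.0 and 93.2 RPM in these libraries, against 113, 106, 103 and 109 RPM in control RNAi. The groups did not overlap (log2 fold change -0.21, SE 0.05, adjusted p = 0.00969), and the adjusted p stayed between 0.00627 and 0.0464 over the alternatives run. SDHA (dd_Smed_v6_897_0_1) had 459, 466, 483 and 469 RPM in libraries labelled *activin-2* RNAi, against 529, 503, 511 and 499 RPM in control RNAi. These did not overlap either (log2 fold change -0.17, SE 0.04, adjusted p = 0.0243), but the adjusted p reached 0.217 over the alternatives. Complex II as a whole summed to 806, 816, 847 and 824 RPM in libraries labelled *activin-2* RNAi and 912, 869, 885 and 852 RPM in control RNAi, without overlap, and 3 of its 4 contigs had negative fold changes.

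Over the 59 contigs the median log2 fold change there was -0.02, with 24 positive, beside a median of 0.01 for all contigs, and with library size alone it was 0.03, with 38 positive, beside 0.06. By RPM 5 contigs stood entirely above the controls and 2 entirely below, beside 10.3% and 5.51% of all contigs. With library size alone the calls were 1 higher and 1 lower. Without the library labelled *activin-2* RNAi in which the target was 70.1 RPM, 1 contig was called, and it was ATP5O. The pharynx marker was 46.8, 17.8, 17.1 and 23.9 RPM in libraries labelled *activin-2* RNAi and 0.243, 0.996, 0.0870 and 0.680 RPM in control RNAi, and *smedwi-1* was 888, 897, 925 and 876 RPM in libraries labelled *activin-2* RNAi and 836, 741, 788 and 789.6 RPM in control RNAi. Their part in the ATP5O and SDHA differences was not tested.

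At anterior-facing wounds at 18 hpa, 22 of 59 contigs were positive with a median of -0.01, which became 34 and 0.01 with library size alone. No contig was entirely above or below the controls by RPM, beside 4.62% and 4.61% of all contigs. An unadjusted p under 0.05 was reached by 3 contigs in edgeR, and DESeq2 called 0. All but 2 of the 59 log2 fold changes were smaller than 0.25 in size, with a median SE of 0.08. The RPM of the target contig was at or above the lowest control in 3 of the 4 libraries labelled *activin-2* RNAi.

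At 0 hpa most contigs of the respiratory chain had slightly higher values in *activin-2* RNAi, and none was called. Positive log2 fold changes were seen for 55 of 59 contigs, with a median of 0.14 beside 0.01 for all contigs, and the median was 0.09 beside -0.04 with library size alone. Every complex had a positive median, from 0.07 for the assembly factors to 0.19 for complex IV. In edgeR 6 contigs, all higher, had an unadjusted p under 0.05, and DESeq2 called 0. By RPM 6 contigs lay entirely above the controls and 0 below, where 7.85% and 15.5% of all contigs did. Summed over all 59 contigs the level was 6536, 6205 and 7165 RPM in *activin-2* RNAi and 5935, 6309 and 6476 RPM in control RNAi, and 1 *activin-2* RNAi library lay within the control range. *smedwi-1* was 916, 943 and 944 RPM in *activin-2* RNAi and 729, 721 and 820.4 RPM in control RNAi, and its part was not tested.

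At 6 hpa 37 of 59 contigs were positive with a median of 0.05, 6 had an unadjusted p under 0.05 in edgeR and 0 were called by DESeq2. The largest fold change in the 6 RNAi comparisons belonged to the second SDHA contig, which had 2.79, 1.87 and 2.09 RPM in *activin-2* RNAi at 6 hpa, against 1.38, 1.21 and 0.964 RPM in control RNAi. The groups did not overlap, yet at these low counts the log2 fold change of 0.96 (SE 0.28) had an adjusted p of 0.121. By RPM 8 contigs stood entirely above the controls and 0 below, beside 9.05% and 14.9% of all contigs.

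At 48 hpa 45 of 59 contigs were positive with a median of 0.08, beside 0.02 for all contigs, and none was called. In edgeR 7 had an unadjusted p under 0.05, 6 of them higher, and DESeq2 called 0. By RPM 11 contigs stood entirely above the controls and 0 below, beside 14.9% and 9.18% of all contigs. The *activin-2* RNAi libraries labelled 48 hpa were far apart, as in complex IV, which summed to 237, 352 and 299 RPM in *activin-2* RNAi and 286, 275 and 291 RPM in control RNAi. The first of them lay below all controls in this sum and the other 2 above them, and without replicate 2 of *activin-2* RNAi 4 contigs were called.

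Across the 6 comparisons, 5 contigs had a positive fold change each time. They were ATP5G2 (dd_Smed_v6_23_0_1, log2 fold changes from 0.08 to 0.31), NDUFB8 of the membrane arm of complex I (0.06 to 0.31), ATP5S (dd_Smed_v6_8207_0_1, 0.03 to 0.36), the assembly factor NDUFAF7 (0.01 to 0.14) and NDUFS6 (0.00 to 0.12). A negative fold change each time was seen for ATP5O (-0.21 to -0.02) and NDUFS7 (dd_Smed_v6_4432_0_1, -0.49 to -0.01). Of these 7 contigs, ATP5G2, ATP5O and NDUFS7 were called, each in 1 comparison. The lowest adjusted p was 0.474 for NDUFAF7 and 0.622 for NDUFS6 in edgeR's quasi-likelihood test. How many of all contigs kept 1 direction in all 6 comparisons was not counted, so no excess can be read from these numbers. The contig dd_Smed_v6_13028_0_1 of SDHA apart, no contig had a log2 fold change above 0.54 in size in any of these 6 comparisons.

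Wound orientation was compared at 18 hpa, posterior-facing over anterior-facing, within each RNAi condition. In libraries labelled *activin-2* RNAi 5 contigs were called higher and 0 lower, beside 9.51% and 8.88% of all contigs, and in control RNAi 3 were called higher and 0 lower, beside 8.19% and 7.24%. The 5 and 3 contigs are 8.47% and 5.08% of the 59, below the shares of all contigs called higher. NDUFB5 and NDUFB9, membrane arm subunits of complex I, were called in both, 40% of the calls in *activin-2* RNAi and 66.7% of those in control RNAi.

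NDUFB9, an accessory subunit of the membrane arm of complex I, had 39.0, 38.1, 37.9 and 32.8 RPM at posterior-facing wounds labelled *activin-2* RNAi, against 32.8, 30.8, 32.5 and 30.0 RPM at anterior-facing ones. The posterior-facing libraries were all above the anterior-facing ones, the lowest of them by a small margin (log2 fold change 0.25, SE 0.07, adjusted p = 0.024). In control RNAi it had 38.4, 36.9, 36.5 and 38.9 RPM at posterior-facing wounds, against 33.2, 29.9, 28.5 and 33.7 RPM at anterior-facing wounds, also without overlap (log2 fold change 0.33, SE 0.07, adjusted p = 0.00547). NDUFB5 had 41.7, 45.5, 43.7 and 35.7 RPM at posterior-facing wounds labelled *activin-2* RNAi, against 38.9, 25.5, 37.1 and 31.8 RPM at anterior-facing ones (log2 fold change 0.35, SE 0.11, adjusted p = 0.0329). In control RNAi NDUFB5 had 41.8, 30.8, 35.7 and 40.6 RPM at posterior-facing wounds, against 36.1, 22.8, 27.8 and 30.5 RPM at anterior-facing wounds (log2 fold change 0.41, SE 0.12, adjusted p = 0.0292). The ranges of NDUFB5 overlapped in both conditions, and its call was lost in 4 of 8 fits that left out 1 library in *activin-2* RNAi and in 5 of 8 in control RNAi, and over all alternatives its adjusted p reached 0.174 in *activin-2* RNAi and 0.114 in control RNAi. The call of NDUFB9 was lost in 3 of 8 such fits in *activin-2* RNAi, where its adjusted p reached 0.0740 over all alternatives, and in 0 of 8 in control RNAi.

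NDUFB10, another membrane arm subunit, was called in control RNAi, with 84.6, 77.9, 81.6 and 82.2 RPM at posterior-facing wounds, against 79.8, 69.5, 70.0 and 73.2 RPM at anterior-facing wounds (log2 fold change 0.22, SE 0.06, adjusted p = 0.0174). In libraries labelled *activin-2* RNAi, NDUFA6, an accessory subunit of the matrix arm, had 25.0, 22.6, 23.4 and 25.0 RPM at posterior-facing wounds, against 17.7, 20.2, 21.9 and 20.1 RPM at anterior-facing ones (log2 fold change 0.28, SE 0.09, adjusted p = 0.0321). There NDUFAF3, an assembly factor of complex I, had 21.1, 25.7, 24.3 and 24.0 RPM at posterior-facing wounds, against 17.9, 12.8, 19.9 and 22.04 RPM at anterior-facing ones (log2 fold change 0.41, SE 0.12, adjusted p = 0.0328). UQCRB, a complex III subunit at the ubiquinone site, had 84.8, 88.5, 83.5 and 87.6 RPM at posterior-facing wounds labelled *activin-2* RNAi, against 77.8, 65.7, 78.2 and 76.9 RPM at anterior-facing ones (log2 fold change 0.23, SE 0.06, adjusted p = 0.0142). NDUFA6 and UQCRB showed no overlap, while NDUFB10 and NDUFAF3 did. In fits that left out 1 library, the call was lost in 5 of 8 for NDUFA6 and 4 of 8 for NDUFAF3. For UQCRB and for NDUFB10 it was lost in 1 of 8. Over all alternatives the adjusted p reached 0.258 for NDUFA6, 0.0954 for NDUFAF3, 0.0695 for UQCRB and 0.0923 for NDUFB10.

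Positive fold changes toward posterior-facing wounds were given by 45 of 59 contigs in libraries labelled *activin-2* RNAi and by 51 of 59 in control RNAi, beside 48.2% and 48.8% of all contigs. With library size alone these fell to 40 and 34 contigs, and the calls to 3 higher in *activin-2* RNAi and 1 higher in control RNAi. By RPM 6 contigs lay entirely above the anterior-facing range in *activin-2* RNAi (10.2% of all contigs) and 1 in control RNAi (6.74%). None lay entirely below, where 12.8% and 14.4% of all contigs did. Neural contigs had negative medians, -0.13 in *activin-2* RNAi and -0.17 in control RNAi, and summed to 10977 to 11633 RPM at posterior-facing and 12023 to 12749 RPM at anterior-facing wounds labelled *activin-2* RNAi, and to 10099 to 10968 RPM at posterior-facing and 11799 to 12934 RPM at anterior-facing wounds in control RNAi. The muscle list summed to 65579 to 68564 RPM at posterior-facing and 62559 to 64218 RPM at anterior-facing wounds labelled *activin-2* RNAi, and to 64849.5 to 69288 RPM at posterior-facing and 61670.0 to 63225 RPM at anterior-facing wounds in control RNAi, without overlap in either condition, although the median fold changes of its contigs were -0.05 and -0.08. The pharynx contig dd_554 stood at 17.1 to 46.8 RPM at posterior-facing and 1.53 to 6.16 RPM at anterior-facing wounds labelled *activin-2* RNAi, and at 0.0870 to 0.996 RPM at posterior-facing and 0.204 to 0.502 RPM at anterior-facing wounds in control RNAi. The gut and neoblast sums overlapped between orientations in both conditions. The part of these lists in the result was not tested. Leaving out 1 library gave between 1 and 6 calls in *activin-2* RNAi and between 1 and 8 in control RNAi, the highest without the first anterior-facing control library.

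The orientation differences of the RNAi conditions were compared directly through their interaction. Of 59 contigs, 0 were called (0.0941% of all contigs were), 1 had an unadjusted p under 0.05 in edgeR, and DESeq2 called 0. The interaction of NDUFB5 was -0.05 (SE 0.17) and that of NDUFB9 was -0.07 (SE 0.10) on the log2 scale, so intervals of plus or minus 2 SE around these values include 0.

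Labelled time was compared within each RNAi condition over 0, 6, 24 and 48 hpa in 1 fit of all 12 groups. Any difference among the 4 times was called for 11 of 59 contigs in *activin-2* RNAi (20.8% of all contigs) and for 17 of 59 in control RNAi (34.5%). The 9 contigs called in both were NDUFB8, NDUFS3 and NDUFS7 (dd_Smed_v6_2735_0_1) of complex I, COX5A and COX6B1 of complex IV, ATP5C1, ATP5G2 (dd_Smed_v6_23_0_1) and ATP5H of complex V, and SDHAF2, which attaches the flavin to SDHA. That is 81.8% of those called in *activin-2* RNAi and 52.9% of those called in control RNAi.

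Between 6 and 0 hpa 0 of 59 contigs were called in *activin-2* RNAi (2.42% of all contigs) and 0 in control RNAi (2.44%). An unadjusted p under 0.05 was given in edgeR by 10 and by 7 contigs, and DESeq2 on the groups compared called 0 in both.

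**Figure D4:**
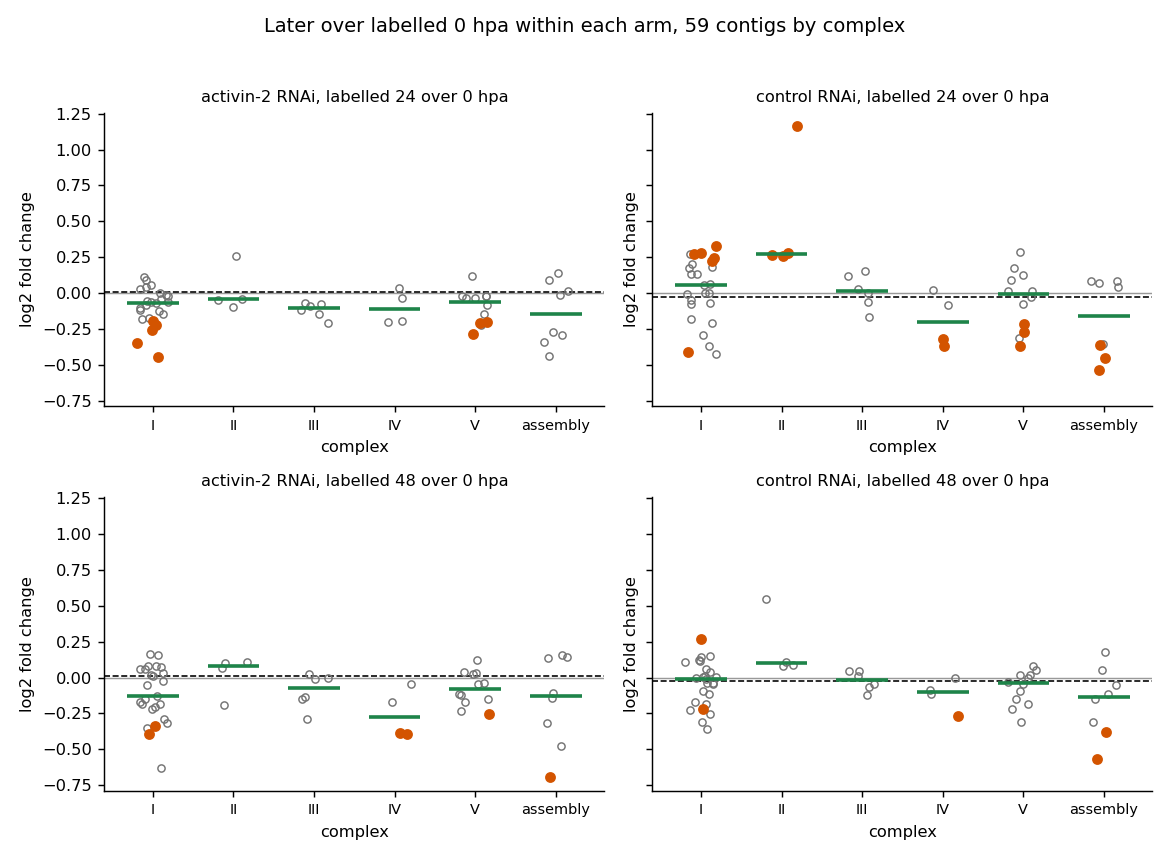
Log2 fold change of 24 over 0 hpa (top) and 48 over 0 hpa (bottom) for each of the 59 contigs, by complex, in *activin-2* RNAi left of control RNAi, with called contigs filled, the median of the complex as a green line and the median of all contigs as a dashed line, after TMM scaling. At 24 over 0 hpa all 4 complex II contigs are called higher in control RNAi, and with scaling by library size only the second SDHA contig among them was called.

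At 24 over 0 hpa NDUFS3 of complex I and ATP5G2 and ATP5H of complex V were lower in both conditions, and all of complex II was higher in control RNAi. In *activin-2* RNAi 0 contigs were called higher and 8 lower, beside 7.01% and 7.76% of all contigs. They were NDUFS3, NDUFS7 (dd_Smed_v6_2735_0_1), NDUFA8, NDUFB8 and NDUFB10 of complex I and ATP5G2 (dd_Smed_v6_23_0_1), ATP5C1 and ATP5H of complex V. In control RNAi 9 were called higher and 9 lower, beside 14.0% and 12.5%. The 3 shared contigs were 37.5% of the calls in *activin-2* RNAi and 16.7% of those in control RNAi.

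NDUFS3, a core subunit of the matrix arm of complex I, had 27.7, 31.7 and 31.0 RPM at 24 hpa in *activin-2* RNAi, against 38.7, 36.9 and 46.5 RPM at 0 hpa (log2 fold change -0.44, SE 0.11, adjusted p = 0.00462). In control RNAi it had 22.3, 22.6 and 27.8 RPM at 24 hpa, against 33.2, 34.1 and 42.5 RPM at 0 hpa (log2 fold change -0.41, SE 0.11, adjusted p = 0.00658). In both conditions all libraries at 24 hpa were below all at 0 hpa. ATP5G2 (dd_Smed_v6_23_0_1) had 79.5, 66.6 and 70.8 RPM at 24 hpa in *activin-2* RNAi, against 85.1, 78.9 and 98.8 RPM at 0 hpa, with overlap by 1 library (log2 fold change -0.28, SE 0.07, adjusted p = 0.00624). In control RNAi it had 50.4, 53.2 and 55.4 RPM at 24 hpa, against 70.8, 78.4 and 85.2 RPM at 0 hpa, without overlap (log2 fold change -0.37, SE 0.07, adjusted p = 0.00026). The call of ATP5H was lost in 5 of 6 fits that left out 1 library in *activin-2* RNAi and in 4 of 6 in control RNAi.

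Among the other contigs called lower at 24 hpa in *activin-2* RNAi, NDUFS7 (dd_Smed_v6_2735_0_1) changed by -0.35, NDUFA8, an accessory subunit with its face to the intermembrane space, by -0.26, and the remaining ones by between -0.22 and -0.19 on the log2 scale. In control RNAi the calls downward included COX6B1 (log2 fold change -0.37, adjusted p = 0.00838) and COX5A (log2 fold change -0.32, adjusted p = 0.00337) of complex IV. They also included 3 assembly factors, NDUFAF3 (log2 fold change -0.53, adjusted p = 0.0307), SDHAF2 (log2 fold change -0.45, adjusted p = 0.0189) and NDUFAF1 (log2 fold change -0.36, adjusted p = 0.0228). All 9 contigs called lower in control RNAi had every library at 24 hpa below every library at 0 hpa. By RPM this held for 24 of the 59 contigs, beside 31.4% of all contigs, and 1 contig lay entirely above the range at 0 hpa, beside 9.50%.

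The contigs called higher at 24 hpa in control RNAi were the 4 of complex II and, in complex I, NDUFV1, which binds NADH, NDUFV2, NDUFS8, NDUFA7 and NDUFAB1 (dd_Smed_v6_1384_0_1), the mitochondrial acyl carrier protein. The second SDHA contig had 3.29, 2.57 and 2.62 RPM at 24 hpa, against 1.12, 1.11 and 1.94 RPM at 0 hpa, without overlap (log2 fold change 1.16, SE 0.25, adjusted p = 0.000646). The main SDHA contig had 511, 502 and 469 RPM, against 438, 487 and 463 RPM, with overlap (log2 fold change 0.28, SE 0.09, adjusted p = 0.0173). The other 7 overlapped by RPM too, and their log2 fold changes ran between 0.22 and 0.33.

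Most of these upward calls were lost with library size alone. TMM factors of the control libraries were 0.882 to 0.948 at 24 hpa, and with library size alone the median of all contigs at 24 over 0 hpa was -0.22 in place of -0.03. Then 1 contig, the second SDHA, was called higher and 28 lower, in place of 9 and 9. Relative to the median of all contigs, the median of the 59 contigs was 0.04 higher under either scaling. Single libraries mattered as well, since 4 contigs were called without control replicate 3 at 0 hpa, 5 without control replicate 1 and 8 without control replicate 2 at 24 hpa. In *activin-2* RNAi the call count was 5, all lower, with library size alone, and 0 without *activin-2* RNAi replicate 3 at 0 hpa.

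Contigs that mark cell types were read by RPM at the same times. The neoblast gene smedwi-1 was 704 to 734 RPM at 24 hpa, against 916 to 944 RPM at 0 hpa, in *activin-2* RNAi, and 555 to 602 RPM at 24 hpa, against 721 to 820.4 RPM at 0 hpa, in control RNAi. The neoblast list summed to 6215 to 6517 RPM at 24 hpa, against 6751 to 7093 RPM at 0 hpa, in *activin-2* RNAi, and to 6084 to 6245 RPM at 24 hpa, against 6453 to 6936 RPM at 0 hpa, in control RNAi. Both were lower at 24 hpa without overlap in either condition. The paper reports that a rise of neoblast transcripts at wounds occurred normally in *activin-2* RNAi, shown for known neoblast genes over all its times. By RPM, the values at 24 hpa run the other way. The neoblast list at 6 hpa summed to 6958 to 7346 RPM in *activin-2* RNAi, overlapping 0 hpa, and 7574 to 7808 RPM in control RNAi, above 0 hpa. At posterior-facing wounds at 18 hpa it was above 0 hpa, with 7420 to 7689 RPM labelled *activin-2* RNAi and 7412 to 7757 RPM in control RNAi. At 48 hpa it was 5990 to 6988 and 6211 to 6387 RPM. At 6 hpa smedwi-1 was 988 to 1069 RPM in *activin-2* RNAi and 1018 to 1112 RPM in control RNAi. At 48 hpa it was 648 to 877 and 581 to 610 RPM. Whether the labelled times match the hours after amputation was not tested. In control RNAi the neural list was also lower without overlap, with 7879 to 8394 RPM at 24 hpa, against 8723 to 9303 RPM at 0 hpa, and the gut list was higher without overlap, with 115711 to 119040.0 RPM at 24 hpa, against 106511 to 114909 RPM at 0 hpa. After TMM scaling the median log2 fold change was positive for both, 0.11 for the neural and 0.12 for the gut contigs. In *activin-2* RNAi these lists overlapped, the neural one with 8731 to 9893 RPM at 24 hpa, against 8282 to 9000.4 RPM at 0 hpa, and the gut one with 108113 to 123354 RPM at 24 hpa, against 107313 to 114206 RPM at 0 hpa. The muscle list overlapped between the times in both conditions. The part of these lists in the differences between 24 and 0 hpa was not tested.

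At 48 over 0 hpa 0 contigs were called higher and 6 lower in *activin-2* RNAi, beside 2.08% and 2.42% of all contigs, and 1 higher and 4 lower in control RNAi, beside 5.42% and 4.62%. COX5A, a complex IV subunit, was the 1 contig in both. It had 62.2, 98.6 and 79.6 RPM at 48 hpa in *activin-2* RNAi, against 105, 98.2 and 119 RPM at 0 hpa (log2 fold change -0.39, SE 0.08, adjusted p = 0.00392), and 81.5, 77.8 and 80.1 RPM at 48 hpa in control RNAi, against 106, 96.7 and 113 RPM at 0 hpa (log2 fold change -0.27, SE 0.08, adjusted p = 0.0327). The control libraries did not overlap, and in *activin-2* RNAi 1 library at 48 hpa reached the range at 0 hpa. The call of COX5A was lost in 2 of 6 fits that left out 1 library in *activin-2* RNAi and in 5 of 6 in control RNAi, and over all alternatives its adjusted p reached 0.331 in *activin-2* RNAi and 0.137 in control RNAi. Such fits called 0 to 15 of the 59 contigs in *activin-2* RNAi and 0 to 3 in control RNAi.

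The other contigs lower at 48 hpa in *activin-2* RNAi were SDHAF2 (log2 fold change -0.70, adjusted p = 0.00367), COX6B1 (log2 fold change -0.39, adjusted p = 0.0244), NDUFS3 (log2 fold change -0.39, adjusted p = 0.0429), NDUFA10 (log2 fold change -0.34, adjusted p = 0.0484) and ATP5H (log2 fold change -0.25, adjusted p = 0.0382). SDHAF2 had 5.36, 10.3 and 6.73 RPM at 48 hpa, against 11.3, 12.9 and 14.2 RPM at 0 hpa, and the second library at 48 hpa stood apart from the other 2. Without that library 15 contigs were called, and its omission also took the contigs called for any difference among the times in *activin-2* RNAi to 24.

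In control RNAi NDUFAF3 (log2 fold change -0.57, adjusted p = 0.043), NDUFAF1 (log2 fold change -0.38, adjusted p = 0.0362) and NDUFB8 (log2 fold change -0.22, adjusted p = 0.049) were lower at 48 hpa and NDUFA5 was higher. With library size alone, which set the median of all contigs to -0.16 in place of -0.02, the control calls were 0 higher and 12 lower. At 48 over 24 hpa 1 contig was called higher and 0 lower in *activin-2* RNAi, beside 4.10% and 1.84% of all contigs, and 1 higher and 2 lower in control RNAi, beside 5.73% and 5.40%. The 1 contig was BCS1L, which inserts the Rieske protein into complex III, with 50.6, 38.5 and 49.1 RPM at 48 hpa, against 35.3, 31.2 and 34.2 RPM at 24 hpa, without overlap (log2 fold change 0.49, SE 0.15, adjusted p = 0.0424), a call lost in 5 of 6 fits that left out 1 library, with an adjusted p that reached 0.294 over all alternatives. In control RNAi NDUFA5 was higher (log2 fold change 0.27, adjusted p = 0.0344), and NDUFS8 (log2 fold change -0.26, adjusted p = 0.0358) and NDUFB9 (log2 fold change -0.24, adjusted p = 0.0412) were lower. Fits that left out 1 library lost the call in 4 of 6 for NDUFA5, 4 of 6 for NDUFS8 and 5 of 6 for NDUFB9. Over all alternatives their adjusted p reached 0.142, 0.224 and 0.307.

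The time courses of the RNAi conditions differed for 2 of 59 contigs by the interaction test (6.10% of all contigs were called), while 14 had an unadjusted p under 0.05, all 4 complex II contigs among them. NDUFA5, an accessory subunit of the matrix arm of complex I, had 37.5, 35.4 and 39.0 RPM at 0 hpa in *activin-2* RNAi, 32.5, 36.0 and 36.6 RPM at 6 hpa, 37.7, 36.9 and 32.9 RPM at 24 hpa and 26.5, 33.8 and 28.9 RPM at 48 hpa. In control RNAi it had 26.8, 32.6 and 36.0 RPM at 0 hpa, 35.1, 40.1 and 36.7 RPM at 6 hpa, 28.2, 26.5 and 28.5 RPM at 24 hpa and 36.3, 33.6 and 34.1 RPM at 48 hpa. Thus *activin-2* RNAi was above control RNAi in every library at 24 hpa and mostly below it at 48 hpa (interaction, adjusted p = 0.00936). Within a time neither difference was called, with log2 fold changes of 0.23 (adjusted p = 0.113) at 24 hpa and -0.26 (adjusted p = 0.23) at 48 hpa.

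The second SDHA contig had 2.26, 2.54 and 1.43 RPM at 0 hpa in *activin-2* RNAi, 2.79, 1.87 and 2.09 RPM at 6 hpa, 2.49, 2.79 and 2.30 RPM at 24 hpa and 1.72, 1.93 and 1.58 RPM at 48 hpa. Its levels in control RNAi were 1.12, 1.11 and 1.94 RPM at 0 hpa, 1.38, 1.21 and 0.964 RPM at 6 hpa, 3.29, 2.57 and 2.62 RPM at 24 hpa and 2.00, 1.85 and 1.83 RPM at 48 hpa. Control RNAi was low at 0 and 6 hpa and highest at 24 hpa, a course that the *activin-2* RNAi libraries did not show to the same extent (interaction, adjusted p = 0.0365). The other complex II contigs missed the threshold in the interaction, with adjusted p-values of 0.0716 for the main SDHA contig, 0.156 for SDHB and 0.182 for SDHC. Without *activin-2* RNAi replicate 2 at 48 hpa, 10 of the 59 contigs passed the interaction test.

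Other parts of mitochondrial and energy metabolism, taken from lists of human gene names, were read in the same comparisons. Of all contigs, 4.51% were called higher and 7.96% lower at 24 hpa, and 3.15% and 5.78% at posterior-facing wounds at 18 hpa. In either direction 4.22% were called at 0 hpa, 2.00% at 6 hpa, 2.60% at anterior-facing wounds at 18 hpa and 2.33% at 48 hpa. Glycolysis, which makes pyruvate in the cytosol, was lower in *activin-2* RNAi for 10 of 17 contigs at 24 hpa and, in libraries labelled *activin-2* RNAi at 18 hpa, for 8 of 16 at posterior-facing and 2 of 16 at anterior-facing wounds, with 0 higher. With library size alone the first of these counts was 6 and the second 8. The largest changes were those of ALDOA (dd_Smed_v6_881_0_1), an aldolase, with log2 fold changes of -0.80 at 24 hpa and -0.74 at posterior-facing wounds at 18 hpa. The citric acid cycle, which supplies the NADH and succinate that the chain oxidizes, was lower for 4 of 19 contigs at 24 hpa and for 4 of 19 at posterior-facing wounds at 18 hpa, with 0 higher, and for 2 and 1 with library size alone. These included malate dehydrogenase contigs matching MDH2, at -0.52 (dd_Smed_v6_1954_0_1) at 24 hpa and -0.48 (dd_Smed_v6_3152_0_1) at 18 hpa. By RPM, the sums of the citric acid cycle list overlapped between the RNAi conditions at every labelled time and orientation. Those of glycolysis overlapped at 0, 6 and 48 hpa and at anterior-facing wounds at 18 hpa. At 24 hpa they were 3125 to 3596 RPM in *activin-2* RNAi and 3910 to 4147 RPM in control RNAi, without overlap. At posterior-facing wounds at 18 hpa they were 2807 to 2915 RPM labelled *activin-2* RNAi and 3153 to 3303 RPM in control RNAi, also without overlap.

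Among carriers that serve the chain, 1 contig was called in 5 of the 6 RNAi comparisons. SLC25A6 (dd_Smed_v6_50_0_1), an exchanger of ADP and ATP across the inner membrane, had 4239, 3852 and 4245 RPM in *activin-2* RNAi at 0 hpa, against 2725, 3111 and 2799 RPM in control RNAi. It was called higher in *activin-2* RNAi at 0, 6 and 24 hpa and at both orientations at 18 hpa, with log2 fold changes of 0.55 at 0 hpa, 0.59 at 6 hpa, 0.37 at 24 hpa, 0.34 at anterior-facing and 0.37 at posterior-facing wounds. At 48 hpa it was not called, although its 4514, 4116 and 4909 RPM in *activin-2* RNAi were all above the 3057, 2990.4 and 2814 RPM in control RNAi. Of the 14 carrier contigs, 1, 1, 2, 3 and 0 were called higher at 0, 6, 18 (posterior-facing), 24 and 48 hpa and 1 of 13 at anterior-facing wounds at 18 hpa, with 0 lower.

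In the wider list of assembly factors, which holds the 8 assembly factors among the 59 contigs, FOXRED1 (dd_Smed_v6_10791_0_1), a factor of complex I assembly, was lower in *activin-2* RNAi at 0 hpa (log2 fold change -1.66), at 24 hpa (-0.78) and at 18 hpa at anterior-facing (-0.87) and posterior-facing wounds (-0.80). Mitochondrial ribosomal proteins were called for 1 lower of 48 contigs in each comparison except 24 hpa, where 3 were higher and 0 lower. That 1 contig was MRPL20 (dd_Smed_v6_2225_0_1) each time, with log2 fold changes from -1.02 to -0.79. Over time the ribosomal list was lower at 24 over 0 hpa for 22 of 48 contigs in *activin-2* RNAi and for 17, with 1 higher, in control RNAi, and with library size alone for 16 and 31, with 0 higher. Of all contigs, 7.76% in *activin-2* RNAi and 12.5% in control RNAi were called lower at 24 over 0 hpa after TMM scaling.

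**Figure D5:**
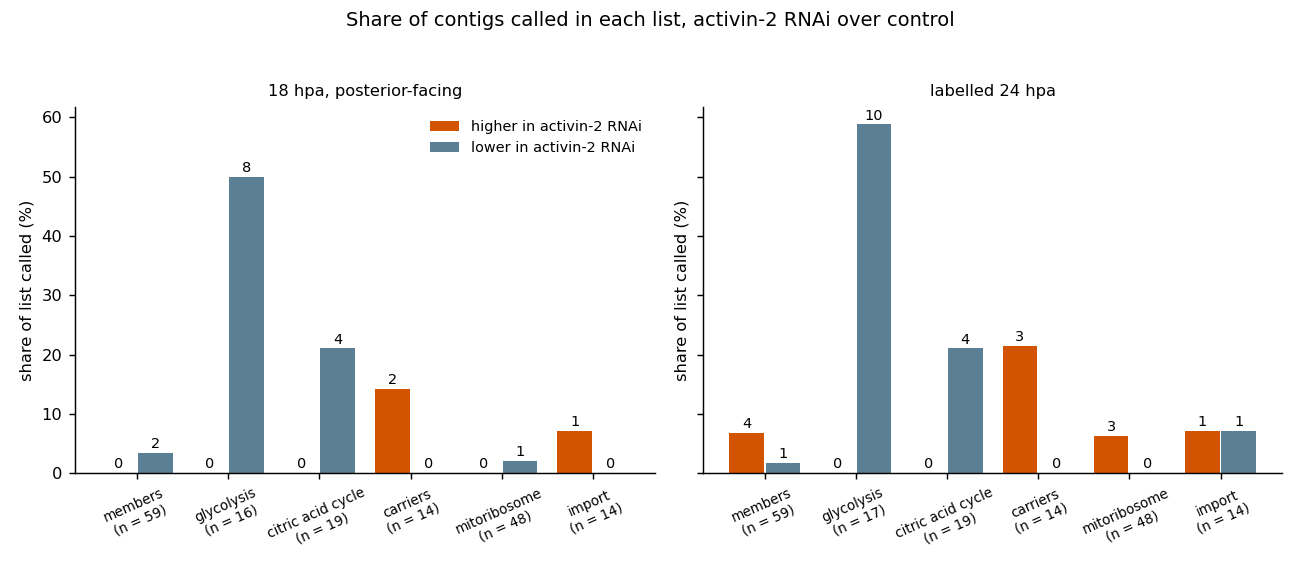
Percentage of contigs called higher and lower in *activin-2* RNAi over control RNAi, at posterior-facing wounds at 18 hpa and at 24 hpa, with the number of contigs above each bar, for the respiratory chain contigs and for lists of related mitochondrial and metabolic genes, after TMM scaling. Glycolysis has the largest share of lower calls at 24 hpa, 10 of 17 contigs, a count that was 6 with scaling by library size, and 4 respiratory chain contigs were higher and 1 lower, counts that were 14 and 0 with scaling by library size. Of all contigs, 4.51% were called higher and 7.96% lower at 24 hpa.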

How the data were processed

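RNA libraries were prepared by the authors with a stranded Kapa kit. The deposited counts are whole numbers of reads per transcriptome contig, not normalized. The paper's methods describe mapping with Bowtie to the dd_Smed_v6 transcriptome, counting per contig with bedtools, summing over isotigs and DESeq2. The submitters' processing notes name CASAVA 1.9, cutadapt 1.8, Bowtie 1.2, SAMtools 1.6 and DESeq, so read trimming is named only there, and the version of Bowtie differs between both sources. The authors' own fold change and p-value columns were not used. Human matches and cell type annotations are those of the deposited table.

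RPM is counts per 1000000 counted reads of the library. Differences were tested in R 4.3.3 with edgeR 4.0.16 (quasi-likelihood, TMM scaling, filterByExpr, limma 3.58.1) over all contigs that passed the filter, with Benjamini-Hochberg adjustment, and DESeq2 1.42.0 was an alternative. Each RNAi or orientation comparison used only its own groups, the interaction at 18 hpa the 4 groups of that time, and labelled times a fit of all 12 groups. All 59 contigs passed the filter in every comparison. Counting error is small at these depths except for the least abundant contigs. The tests were checked on simulated data in which the set changes were larger than nearly all of those called here. That simulation held no shift in composition and no outlying library, so it does not cover those cases.

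The contigs, lists and tests were chosen with earlier results of these data known. Contigs named were the called ones with the largest fold changes in each comparison (up to 4 per direction), the 2 with the most counts in each complex, those called in an interaction, and those next to the count limit; other contigs named, such as the remaining called ones and those with 1 direction in all 6 RNAi comparisons, were chosen after their values were seen. Alternatives were RLE scaling, library size alone, no filter, a fit of other groups, DESeq2, 1 contig per human symbol, a replicate block, and leaving out each replicate.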

Additional observations from a re-analysis of the deposited data

Results flagged for a closer look

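In groups of 4 libraries, the library farthest from its group was examined for 60 combinations of value and group, and in 3 its gap to the next library took more of the group's range than Dixon's gap test allows, which happens by chance in about 1 in 20 groups. UQCRB was 65.7 RPM in replicate 2 of the anterior-facing libraries labelled *activin-2* RNAi at 18 hpa, lowest of 77.8, 65.7, 78.2 and 76.9 RPM. ATP5O was 93.2 RPM in replicate 4 of the posterior-facing libraries labelled *activin-2* RNAi, lowest of 97.0, 97.2, 97.0 and 93.2 RPM. The summed level of the 59 contigs was 6453 RPM in replicate 4 of the anterior-facing control libraries, lowest of 6681, 6653, 6653 and 6453 RPM.

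The RNAi conditions had different time courses for NDUFA5 (adjusted p = 0.00936, edgeR's quasi-likelihood test of the interaction with Benjamini-Hochberg adjustment) and for the second SDHA contig (adjusted p = 0.0365).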

How the results depend on the processing

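Counts below are of the 59 contigs called in edgeR or, where named, DESeq2, and no called fold change reversed its sign in any of 735 alternative values of single contigs, of which 448 kept the call and 287 lost it. With library size alone the *activin-2* RNAi over control count at 24 hpa was 14, orientation gave 3 in *activin-2* RNAi and 1 in control RNAi, any difference in time 35 in control RNAi, 24 over 0 hpa 5 in *activin-2* RNAi and 29 in control RNAi, and 48 over 0 hpa 12 in control RNAi. With 1 fit over all 12 groups, the RNAi counts were 2 at 0 hpa, 1 at 6 hpa, 1 at 18 hpa posterior-facing and 4 at 48 hpa, and orientation in *activin-2* RNAi gave 1. Without the filter they were 1 at 18 hpa posterior-facing, 1 in the time interaction, 3 at 48 over 0 hpa in *activin-2* RNAi and, in control RNAi, 0 at 48 over 0 and 1 at 48 over 24 hpa. With 1 contig per symbol the RNAi count at 24 hpa was 3, and with RLE 48 over 0 hpa in *activin-2* RNAi gave 3. Fits of only the groups compared gave, in edgeR and in DESeq2 alike, 3 at 24 over 0, 0 at 48 over 0 and 0 at 48 over 24 hpa in *activin-2* RNAi, and 9 at 24 over 0 and 2 at 48 over 0 hpa in control RNAi, and DESeq2 gave 1 at 48 over 24 hpa there. Alternatives chosen after seeing the data were the library size scaling of the time comparisons, the 18 hpa posterior-facing comparison without the library at 70.1 RPM of *activin-2* (1), and fits without the 2 libraries of fewest reads (48 over 24 hpa in *activin-2* RNAi 0, and in control RNAi 6 over 0 hpa 1 and 48 over 0 hpa 3).

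Deviations of same-numbered libraries correlated at -0.18 to 0.31. With so few libraries in a group, such correlations cannot decide whether the replicate numbers pair the libraries, and the main fits used no pairing. With the number as a block the RNAi count at 24 hpa was 9 and that of 6 over 0 hpa in *activin-2* RNAi was 1.

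Leaving out 1 replicate gave 0 to 1 calls for RNAi at 6 hpa, 1 to 2 at 18 hpa posterior-facing, 0 to 10 at 24 hpa and 0 to 4 at 48 hpa. Orientation gave 1 to 6 in *activin-2* RNAi and 1 to 8 in control RNAi. Any difference in time gave 5 to 24 in *activin-2* RNAi, the lowest without replicate 3 at 0 hpa, and 13 to 20 in control RNAi, and the time interaction 1 to 10. In *activin-2* RNAi 6 over 0 hpa gave 0 to 2, 24 over 0 hpa 0 to 8, 48 over 0 hpa 0 to 15 and 48 over 24 hpa 0 to 14, the last 2 highest without replicate 2 at 48 hpa. In control RNAi 6 over 0 hpa gave 0 to 1, 24 over 0 hpa 4 to 20, 48 over 0 hpa 0 to 3 and 48 over 24 hpa 0 to 2. The cause of these changes was not tested. The second SDHA contig, at 4 counts in its lowest library, is the 1 limited most by depth.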
